A study of Ovis aries with 20 samples.

Results

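The non-collagen matrix of the newborn sheep heart was followed here through 6 genes: the small leucine-rich proteoglycans biglycan (BGN) and decorin (DCN), fibulin 1 (FBLN1), the gelatinase MMP2 and the metalloproteinase inhibitors TIMP2 and TIMP3. They were chosen by name, with earlier results of these data known. All 10 probes that could be named as one of them were taken, of 15008 probes in all. Names came from a transcript accession or gene identifier in the scanner files, matched to a gene list, and for TIMP2 from the gene symbol. In all 1359 probes were named, for 843 genes, and 13649 were not, so further probes of these genes may remain unnamed. RNA came from 2 parts of the heart of singleton newborn lambs, the septum between the ventricles and the wall of the left ventricle (LV). Control lambs were born to ewes given vehicle, and cortisol lambs to ewes given 1 mg/kg of cortisol per day, with infusion from about day 115 of gestation up to birth. Each treatment had 5 LV arrays and 5 septum arrays, which makes 4 groups, and per the titles the lambs belonged to a telemetry experiment. Lambs were killed 10 to 480 min after birth, and the time of each lamb is not among the labels. The steroid was given to the ewe, so the dose that reached a fetus is not given by the labels.

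Decorin and biglycan are secreted proteins whose leucine-rich core binds collagen fibrils and growth factors of the TGF-beta family, and fibulin 1 is a calcium-binding glycoprotein of elastic fibres and basement membranes. MMP2 is a secreted zinc protease that cleaves denatured collagen and basement membrane collagen. The TIMPs block such proteases, TIMP2 also takes part in the activation of pro-MMP2 at the cell surface, and TIMP3 is held in the matrix itself. In the heart these proteins come mainly from fibroblasts and other interstitial cells.

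The probes are 60-mers, shown here because for 3 of the genes they set how many independent readings there are, and because the strand of 1 of them bears on what it reads. The 2 FBLN1 probes share 56 bases, marked in capitals, so they count as 1 reading of the same stretch. No run of 20 bases was shared by the other member probes with any probe of the array on either strand.

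BGN: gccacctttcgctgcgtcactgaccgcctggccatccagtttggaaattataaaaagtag
DCN probe 2: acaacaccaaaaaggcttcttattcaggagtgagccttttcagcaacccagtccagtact
FBLN1 probe 1: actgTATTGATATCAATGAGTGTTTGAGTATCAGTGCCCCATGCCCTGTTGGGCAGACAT
FBLN1 probe 2: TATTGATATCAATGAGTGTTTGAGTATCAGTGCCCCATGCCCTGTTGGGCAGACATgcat
MMP2 probe 1: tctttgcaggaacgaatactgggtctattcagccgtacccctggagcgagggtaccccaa
MMP2 probe 2: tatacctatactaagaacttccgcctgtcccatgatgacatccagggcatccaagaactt
MMP2 probe 3: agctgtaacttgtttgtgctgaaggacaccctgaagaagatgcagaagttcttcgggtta
TIMP2: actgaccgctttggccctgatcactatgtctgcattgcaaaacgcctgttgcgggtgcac
TIMP3: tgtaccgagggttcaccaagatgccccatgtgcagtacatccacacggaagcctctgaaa

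Where a gene had several probes they were numbered from the brightest, and probe 1 leads. The array identifiers are A_70_P050926 for BGN, A_70_P030251 for DCN probe 1, A_70_P016567 for FBLN1 probe 1, A_70_P026547 for MMP2 probe 1, A_70_P001851 for TIMP2 and A_70_P021571 for TIMP3. The FBLN1 probes carry the description fibulin 1-D, one of the splice forms of the gene. The TIMP2 probe takes its name from the scanner files alone and was built on an expressed sequence tag. As background and not from these files, the reverse complement of that 60-mer, and not the strand printed, is the coding direction of TIMP2, whereas the other 60-mers printed here are in the coding direction. Whether the TIMP2 probe reads TIMP2 mRNA was not tested, and its values are those of the probe that bears this name. No genome was used here, so no positions are given.

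All 10 probes were well above background on all 20 arrays, with 0 saturated spots and 0 missing values. Levels are log2 of the scanner's processed spot intensity minus the array's 75th percentile, so 0 is the brightness below which 75% of the probes of that array lie. Levels of different probes are not compared, since each probe binds its target with its own strength. Of all spots, 57.9% to 72.1% per array were well above background. The arrays lay on 4 slides: slide 3 held LV control 1, 2 and 4 and LV cortisol 1, 2 and 3, and slide 1 the septum arrays of the same 6 lambs. Slide 2 held control 3 and 5 and cortisol 5 of both regions and septum cortisol 4, and slide 4 held only LV cortisol 4. Slide therefore goes with lamb, and mostly with region. The labels' protocols give 5 ewes per treatment, so the arrays of a group are taken as separate lambs, and the highest r across probes between any 2 arrays was 0.985. In these bulk samples, more cells of a type and more RNA per cell cannot be told apart.

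Biglycan had the cortisol difference with the smallest p of the 6 genes in both regions. In LV, BGN stood at -1.08, -0.86, -1.53, -1.01 and -1.13 in control lambs 1 to 5 and at -0.42, -0.0024, -0.60, -0.45 and -0.98 in cortisol lambs 1 to 5. Every cortisol lamb lay above the control mean, 4 of 5 lay above every control lamb, and only cortisol 5 fell within the control range. The means were -1.12 ± 0.25 and -0.49 ± 0.35 (SD, n = 5 each), a log2 difference of 0.63 ± 0.21 (SE, 95% interval 0.18 to 1.09), or 1.55-fold. With limma the unadjusted p was 0.011 and the adjusted p over 9790 probes was 0.879, so it did not pass. In septum, BGN stood at -1.23, -0.97, -1.47, -1.11 and -1.18 in control lambs and at 0.51, -0.0044, -0.42, -0.94 and -1.42 in cortisol lambs 1 to 5. Again 4 of 5 cortisol lambs lay above every control lamb, narrowly for cortisol 4, and cortisol 5 was near the bottom of the control range. The septum difference was 0.74 ± 0.32 (95% interval 0.03 to 1.44; limma unadjusted p = 0.042, adjusted p = 0.822).

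Decorin was read by separate stretches of its transcript. In LV, DCN probe 1 stood at 5.70, 4.92, 5.24, 5.47 and 5.25 in control lambs and at 5.95, 6.32, 5.93, 4.70 and 5.11 in cortisol lambs 1 to 5. Cortisol 1, 2 and 3 lay above every control lamb, and cortisol 4 lay below every control lamb. In septum the values were 5.62, 4.87, 5.08, 5.30 and 5.41 in control lambs and 5.97, 6.08, 5.60, 4.92 and 5.28 in cortisol lambs, with cortisol 1 and 2 above the control range and the other 3 inside it. The differences of probe 1 were 0.28 ± 0.30 in LV and 0.31 ± 0.25 in septum, and those of probe 2 were 0.22 ± 0.24 and 0.38 ± 0.22. In LV that of probe 1 was 0.11 with quantile scaling and 0.087 in the deposited log2 table. None passed (limma adjusted p 0.894 for both probes in LV and 0.822 for both in septum).

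For fibulin 1, cortisol 2 and 3 stood above the control lambs in both regions. In LV, FBLN1 probe 1 stood at -3.03, -2.55, -3.07, -3.41 and -3.61 in control lambs and at -2.66, -1.95, -2.30, -3.23 and -3.47 in cortisol lambs 1 to 5. Cortisol 2 and 3 were above every control lamb, and cortisol 4 and 5 lay in the lower part of the control range. In septum, control lambs stood at -3.27, -2.40, -2.99, -3.17 and -3.06 and cortisol lambs at -1.96, -1.84, -2.16, -3.06 and -3.29, with cortisol 1, 2 and 3 above every control lamb and cortisol 5 below every one. The differences were 0.41 ± 0.31 in LV and 0.51 ± 0.31 in septum, and 0.60 ± 0.31 and 0.51 ± 0.38 for the overlapping probe 2. None passed, with limma adjusted p of 0.879 in LV and 0.822 in septum for both probes.

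MMP2, the protease of the set, had the differences nearest 0. In LV, MMP2 probe 1 stood at -0.65, -1.10, -0.88, -1.04 and -1.13 in control lambs and at -0.47, -0.51, -0.27, -1.17 and -1.69 in cortisol lambs 1 to 5. Cortisol 1, 2 and 3 lay above all control lambs and cortisol 4 and 5 below them all, so the cortisol values enclosed the control values from both sides. In septum, control lambs stood at -0.99, -1.29, -1.10, -1.22 and -1.13 and cortisol lambs at -0.87, -0.86, -0.55, -1.61 and -1.49, in the same arrangement. The means thus differed by only 0.14 ± 0.27 in LV (95% interval -0.46 to 0.73) and 0.07 ± 0.21 in septum (-0.40 to 0.54). The other probes did not settle a direction: probe 2 was at -0.09 ± 0.29 and -0.18 ± 0.17, and probe 3 at 0.27 ± 0.38 and 0.01 ± 0.25. The limma adjusted p was 0.831 to 0.995 for these probes.

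The inhibitor TIMP3 had the widest spread of the leading probes in the cortisol groups and in LV control, though not in septum control, where TIMP2 had an SD of 0.47 and TIMP3 0.41. In LV, TIMP3 stood at -0.23, 0.11, 1.07, -0.11 and 0.39 in control lambs and at 0.96, 1.61, 1.58, -0.66 and 0.13 in cortisol lambs 1 to 5. In septum, control lambs stood at -0.65, -0.29, 0.27, -0.75 and -0.53 and cortisol lambs at 0.47, 1.64, 1.65, -1.56 and -0.35. Cortisol 2 and 3 were the highest lambs in both regions and cortisol 4 the lowest in both. The differences were 0.48 ± 0.44 in LV (adjusted p = 0.884 in limma) and 0.76 ± 0.56 in septum (adjusted p = 0.822), and the SD was 0.98 and 1.37 in the cortisol groups against 0.52 and 0.41 in the controls. The TIMP2 probe stood in LV at -3.75, -3.75, -3.66, -4.10 and -4.13 in control lambs and at -3.50, -3.07, -3.70, -3.32 and -4.58 in cortisol lambs, and in septum at -4.42, -4.50, -3.49, -4.61 and -3.91 and at -3.87, -3.36, -3.39, -4.56 and -4.17. The groups overlapped in both regions, and the differences of 0.25 ± 0.27 and 0.32 ± 0.29 did not pass (limma adjusted p 0.894 and 0.828).

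**Figure D1:**
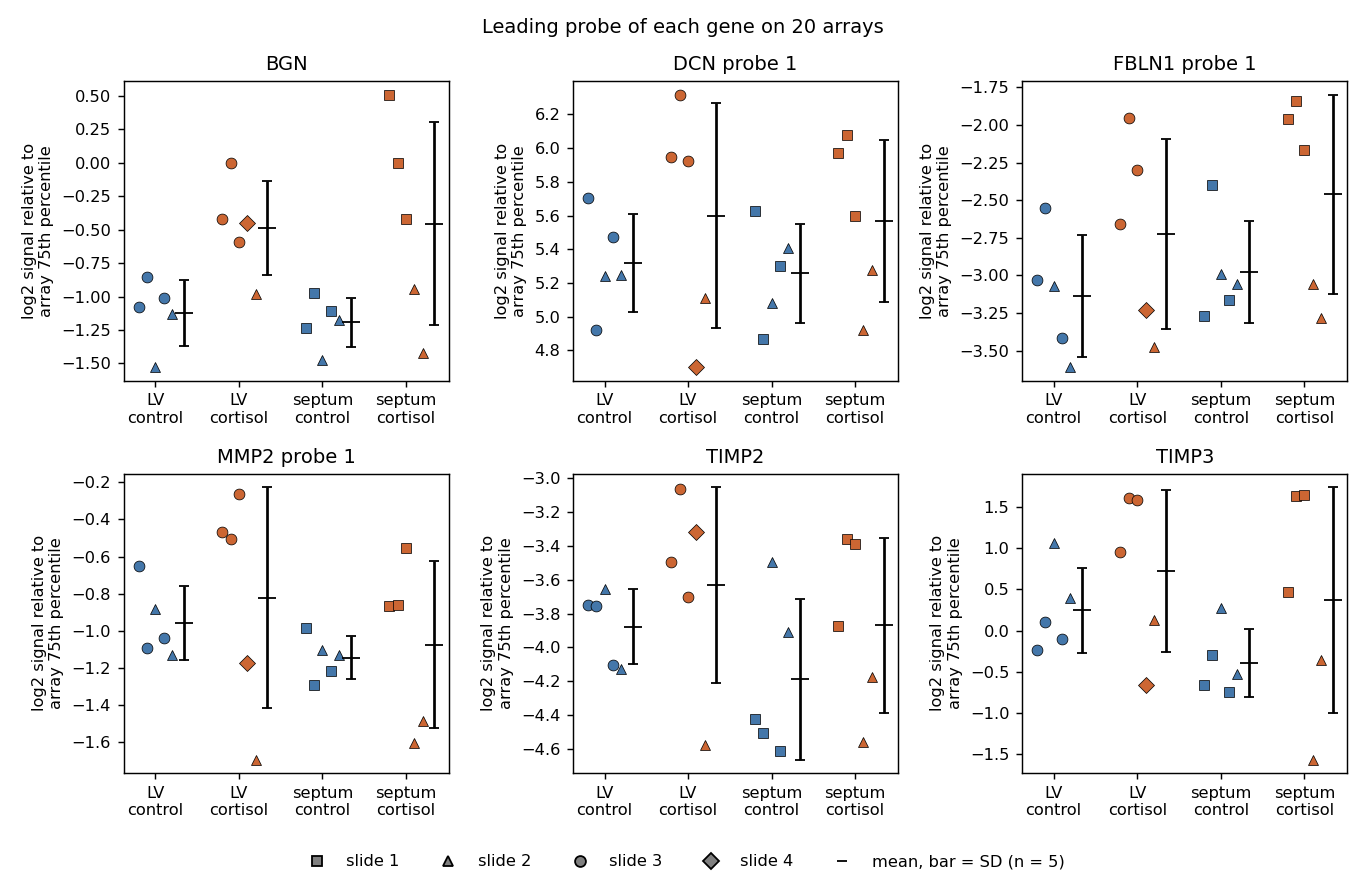
Log2 level of the leading probe of each gene, relative to the array's 75th percentile, on 20 arrays, with points in the order of lambs 1 to 5 and shaped by slide, and with the mean and SD of 5 arrays beside them. In DCN, FBLN1, MMP2 and TIMP3 the cortisol arrays of slides 3 and 1 lie toward the top and those of slides 2 and 4 within or below the range of the control arrays.

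Over the set, 6 of 6 leading probes had a positive cortisol difference in LV and 6 of 6 in septum, beside 48.2% and 54.1% of all probes tested. The median was 0.35 in LV and 0.42 in septum, against -0.01 and 0.03 over all probes. By adjusted p, 0 of 10 probes passed in LV and 0 of 10 in septum, where the share over all probes was 0% as well. At an unadjusted p under 0.05 limma gave 505 of 9790 probes in LV and 379 of 10372 in septum, and 1 of the 10 member probes in each, that of BGN, which was higher after cortisol. Over all probes 2.48% in LV and 1.84% in septum were higher at that p. The genes were not independent readings of the cortisol effect, since they moved together from lamb to lamb. They were also chosen with earlier results of these data known. The member counts set beside all probes are therefore a description and not a test of the set. At least 3 of 5 cortisol arrays lay above every control array for 6 of 10 probes in LV and 6 of 10 in septum, beside 13.2% and 17.6% of all probes. All 5 lay above the control mean for BGN alone in LV and for 0 of 10 in septum, beside 5.07% and 4.72%. The groups were fully apart for 0 of 10 probes in both regions, beside 0.317% and 0.183%. Leaving out 1 lamb moved the differences without turning them for the genes other than MMP2. In LV the ranges were 0.51 to 0.76 for BGN, 0.10 to 0.51 for DCN, 0.22 to 0.60 for FBLN1, 0.10 to 0.48 for TIMP2 and 0.26 to 0.82 for TIMP3, each lowest without cortisol 2, and highest without cortisol 4 (DCN, TIMP3) or cortisol 5 (BGN, FBLN1, TIMP2). In septum they were 0.49 to 0.98 for BGN, 0.18 to 0.47 for DCN, 0.36 to 0.72 for FBLN1, 0.19 to 0.49 for TIMP2 and 0.44 to 1.24 for TIMP3, lowest without cortisol 1 (BGN), cortisol 2 (DCN, FBLN1, TIMP2) or cortisol 3 (TIMP3). Averaged over both regions of a lamb, BGN differed by 0.68 ± 0.24 (limma adjusted p = 0.815), 9 of 10 probes were positive beside 51.3% of all, 1 of 10 had an unadjusted p under 0.05 and was higher beside 2.7%, and 0 of 10 passed. The cortisol difference of the 6 leading probes in septum minus that in LV lay between -0.07 (MMP2) and 0.28 ± 0.75 (TIMP3), with a limma adjusted p of 1.00 for each.

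The cortisol difference was not alike on the slides. Within slide 3, with 3 LV arrays of each group, 6 of 6 leading probes were positive, from 0.45 for TIMP2 to 1.46 ± 0.25 for TIMP3, beside 50% of all probes. Within slide 1, with 3 septum arrays of each group, 6 of 6 were positive, from 0.40 for MMP2 to 1.82 ± 0.36 for TIMP3, beside 54.8%. Within slide 2, 5 of 6 were negative in LV (2 control arrays and 1 cortisol array) and 5 of 6 in septum (2 of each), where 49.2% and 49% of all probes were positive. BGN was the positive one in both, at 0.35 and 0.14, while TIMP3 was at -0.60 and -0.83. No probe of the set passed within a slide (lowest limma adjusted p 0.397 on slide 3 and 0.267 on slide 1). Slides and lambs were the same split, so a slide effect and a difference between lambs cannot be told apart. Among the control arrays the slides differed in either direction by gene. Mean BGN was -0.98 on slide 3 and -1.33 on slide 2 in LV, and -1.10 on slide 1 and -1.32 on slide 2 in septum. FBLN1 was also lower on slide 2 (-3.34 against -3.00 in LV and -3.02 against -2.94 in septum), as was DCN (5.25 against 5.36, and 5.25 against 5.26). TIMP3 was higher on slide 2, at 0.73 against -0.08 in LV and -0.13 against -0.56 in septum. MMP2 (-1.01 against -0.93, and -1.12 against -1.16) and TIMP2 (-3.89 against -3.87, and -3.70 against -4.51) were lower on slide 2 in LV and higher in septum.

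**Figure D2:**
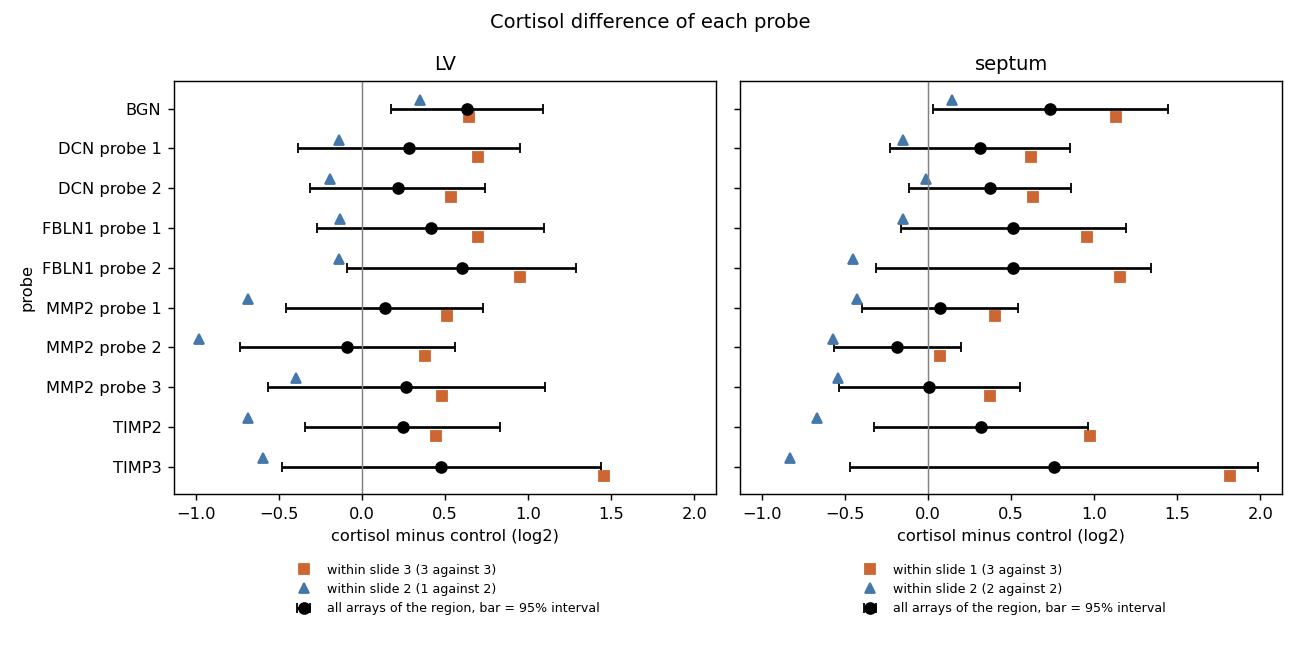
Cortisol minus control difference (log2) of each of the 10 probes in LV and septum, over all arrays of the region with its 95% interval and within single slides. The within-slide points of slides 3 and 1 lie to the right of 0 for all 10 probes, and those of slide 2 to the left of 0 for all but BGN.

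The SD was larger in the cortisol than in the control group for all 10 probes in both regions, beside 75.5% of all probes tested in LV and 77.3% in septum. For the leading probes it was 0.35 to 0.98 in LV cortisol and 0.20 to 0.52 in LV control, and 0.45 to 1.37 and 0.12 to 0.47 in septum. Array brightness moved with some of these values. Each level has the array's 75th percentile subtracted, so a negative r with that percentile may be partly built in. The permutation p-values do not allow for this, and the share of all probes with such an r is not given here. The 75th percentile was 98.4 to 108 intensity units on LV cortisol 1, 2 and 3 and 101 to 262 on the LV control arrays, and 400 and 271 on LV cortisol 4 and 5. Across the 10 LV arrays, its log2 correlated with the level of MMP2 at r = -0.84 (permutation p = 0.0028, adjusted over 12 relations 0.0336; rho = -0.93) and with DCN at r = -0.81 (permutation p = 0.00615, adjusted 0.0369; rho = -0.78). Without the 2 arrays farthest from the median brightness these were -0.89 and -0.68 (permutation p 0.00478 and 0.0717). Within slide 3, over 6 arrays, r was -0.90 for MMP2 (exact permutation p = 0.0361) and -0.70 for DCN (exact permutation p = 0.133). BGN had r = -0.16 in LV, and in septum none of the 6 relations passed (r -0.60 to -0.32), though within slide 1, over 6 arrays, MMP2 stood at r = -0.88 (exact permutation p = 0.025). With brightness as a covariate, an alternative chosen after the data were seen, BGN differed by 0.63 in LV and 0.56 in septum, and MMP2 in septum turned from 0.07 to -0.18. In septum the covariate also took TIMP2 from 0.32 to 0.10, DCN from 0.31 to 0.13 and TIMP3 from 0.76 to 0.45, and the unadjusted p of BGN from 0.042 to 0.186 (limma). In LV MMP2 went from 0.14 to 0.095, and the other 5 genes moved by at most 0.07.

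The comparison of septum with LV asks how the matrix transcripts differ between the walls of 1 heart. Arrays of the 2 regions that carry 1 number and treatment deviated together (r across probes 0.447 to 0.813, highest for the own partner in 10 of 10), and such a pair is counted as 1 lamb, which the labels do not state. TIMP3 was lower in septum in 8 of 10 lambs, by 0.42, 0.40, 0.79, 0.64 and 0.92 in control 1 to 5 and by 0.48, 0.91 and 0.48 in cortisol 1, 4 and 5. The exceptions were cortisol 2 and 3, at 0.03 and 0.07. The mean difference was -0.50 on the log2 scale, or 0.71 of the LV level. Taking the 20 arrays as independent it did not pass (SE 0.38, limma adjusted p = 0.660). With lamb as a block TIMP3 was lower in septum (SE 0.10, adjusted p = 0.00993), in control lambs alone (-0.64 ± 0.14, adjusted p = 0.0257), but not in cortisol lambs alone (-0.36 ± 0.14, adjusted p = 0.223). The difference between those was not shown (0.28 ± 0.20, limma adjusted p = 0.996 with lamb as a block). With lamb as a block 17.6% of all probes passed in either direction and 10.3% passed as lower in septum, and in control or cortisol lambs alone 5.91% and 0.854% passed as lower. Without the block 0.526% of all probes passed and 0 of 10 member probes did, and 52% of all probes but 2 of 10 member probes were higher in septum.

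MMP2 was also lower in septum, with the lamb block, for its probes 2 and 3 (-0.33 ± 0.10 and -0.44 ± 0.12, limma adjusted p = 0.0478 and 0.0324), while probe 1 missed the threshold (-0.22 ± 0.07, adjusted p = 0.0601). The probes were lower in septum in 8, 9 and 9 of 10 lambs. Without the block none of them passed (adjusted p 0.461 to 0.676). The proteoglycans and fibulin did not pass with or without the block. FBLN1 probe 1 was higher in septum in 9 of 10 lambs, at 0.21 ± 0.09 (adjusted p = 0.113 with the block), and probe 2 in 5 of 10, at 0.12 ± 0.12. BGN was at -0.02 ± 0.12 (95% interval -0.28 to 0.25), DCN probe 1 at -0.05 ± 0.07 (-0.20 to 0.11), and TIMP2 at -0.27 ± 0.16.

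Region and slide coincided for most lambs, and for only 3 of 10 did both arrays lie on slide 2. In these TIMP3 was lower in septum in 3 of 3 (-0.79 in control 3, -0.92 in control 5 and -0.48 in cortisol 5), with -0.97 within slide 2 over all its arrays (limma adjusted p = 0.599). Of the MMP2 probes called with the lamb block, within slide 2 probe 2 was at 0.034 ± 0.20 and probe 3 at -0.057 ± 0.15. Neither passed there (limma adjusted p 0.973 and 0.923). For MMP2 probe 1 the 3 values were -0.22, 0.00058 and 0.21, and the difference within slide 2 was 0.02. With slide as a fixed block the fit gave TIMP3 -1.21 ± 0.58 (limma adjusted p = 0.839). It gave MMP2 probes 1 to 3 -0.12 ± 0.25, -0.12 ± 0.26 and -0.16 ± 0.35 (limma adjusted p = 0.948 each). The fits within slide 2 and with slide as a fixed block held no lamb block. Without a lamb block TIMP3 and the MMP2 probes had not passed over all arrays either. What slide alone does to the calls of TIMP3 and of MMP2 probes 2 and 3 was therefore not tested. Of the fibroblast markers, COL3A1 was lower in septum at -1.36 ± 0.38, COL1A2 at -1.12 ± 0.37 and COL1A1 at -0.60 ± 0.33. VIM was at 0.036 ± 0.24, and 0 of 4 passed without a block (limma adjusted p 0.106 to 0.985). The direction was not particular to fibroblast markers. Cardiomyocyte markers were higher in septum in 0 of 4 (median -0.21) and adipocyte markers in 0 of 3 (median -0.39). Endothelial markers were higher in 4 of 6 (median 0.09), beside 52% of all probes. The part of these cell types in the lower TIMP3 and MMP2 was not tested.

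**Figure D3:**
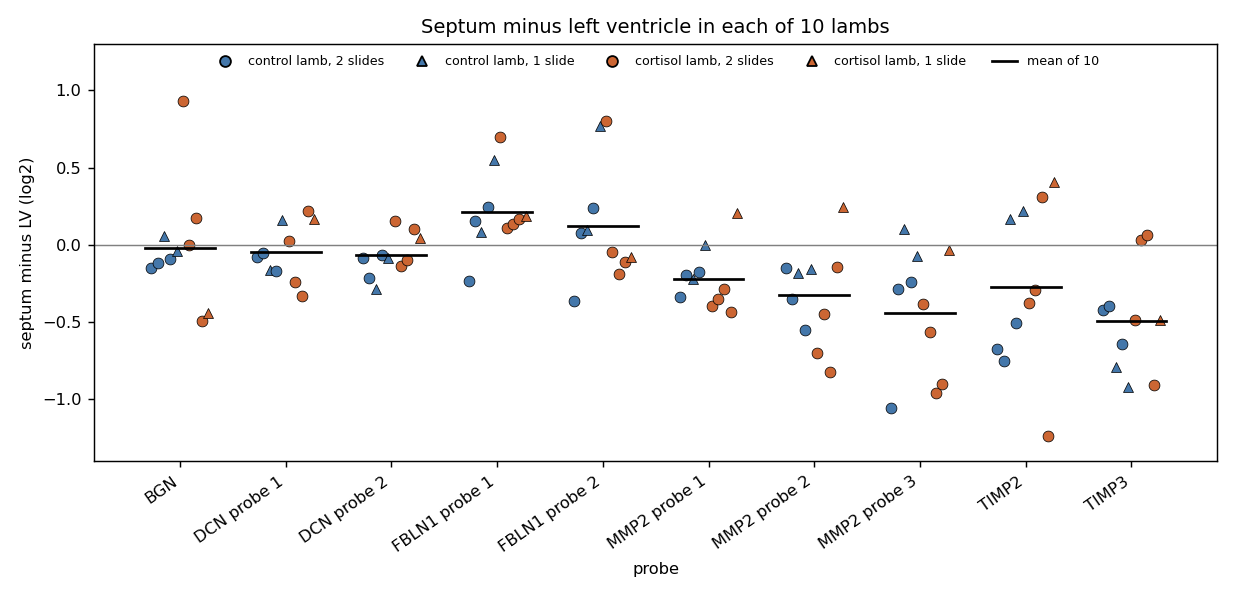
Septum minus LV (log2) for each of the 10 probes in each of 10 lambs, with the mean as a line, and with triangles for the 3 lambs whose arrays share slide 2. TIMP3 lies below 0 in 8 lambs and MMP2 probes 2 and 3 in 9 each, while the triangles of MMP2 probe 1 lie on both sides of 0.

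Lambs kept their place in both walls for 5 of the 6 genes. The pairs were taken as lambs because their arrays deviated together across probes, so a high r cannot be read as particular to these genes. The share of all probes with such an r is not given here. Between LV and septum of the same lamb, TIMP3 correlated at r = 0.97 (rho = 0.92, permutation p = 6.0e-05, adjusted over 6 genes 0.00024), DCN at 0.94 (rho = 0.95, permutation p = 8.0e-05, adjusted 0.00024) and MMP2 at 0.90 (rho = 0.94, permutation p = 0.00052, adjusted 0.00104). FBLN1 stood at r = 0.89 (rho = 0.76, permutation p = 0.00103, adjusted 0.00154) and BGN at 0.81 (rho = 0.89, permutation p = 0.0035, adjusted 0.0042). Without the 2 lambs farthest from the LV median, r was 0.76 to 0.94 for these 5 genes, and with the treatment mean subtracted it was 0.68 to 0.96. The TIMP2 probe was the exception, at r = 0.33 (rho = 0.41, permutation p = 0.358) and 0.06 without the 2 farthest lambs. Over the 6 lambs whose arrays lay on slides 3 and 1, r was 0.84 to 0.99 for those 5 genes and 0.75 for TIMP2 (exact permutation p = 0.0583). The difference between TIMP2 and the other genes was itself not tested.

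**Figure D4:**
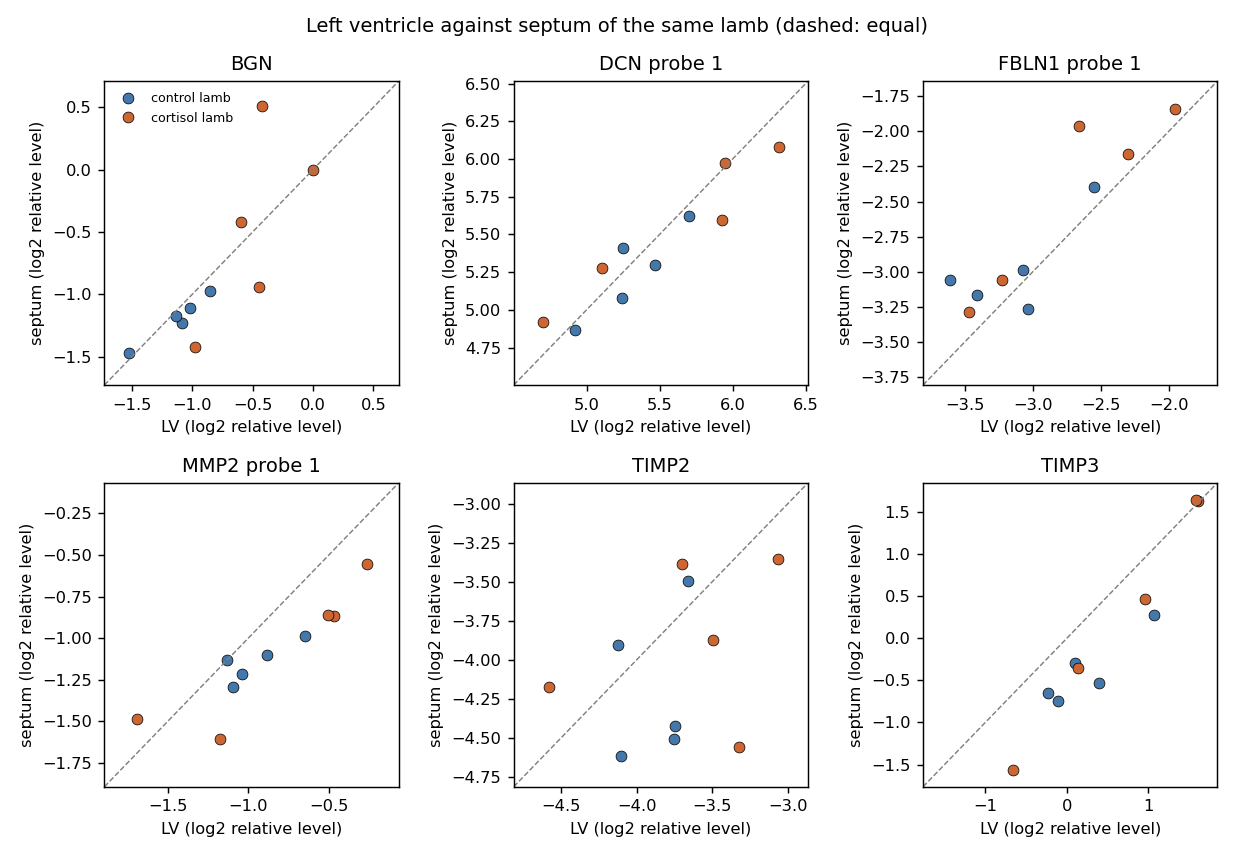
Level of each leading probe in septum (vertical axis) against LV (horizontal axis) of the same lamb, both as log2 relative to the array's 75th percentile. The 10 lambs keep a similar order in both regions for 5 genes (r = 0.81 to 0.97) and less so for TIMP2 (r = 0.33), and TIMP3 lies below the dashed line of equality in 8 of 10 lambs.

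Within a region, all 15 pairs of the 6 leading probes correlated positively across lambs, in LV and in septum. The median r was 0.65 in both regions, against a median between -0.01 and 0.10 for a member with all other tested probes. Of the 30 pairs, 5 passed after adjustment over all 30. In septum these were BGN with FBLN1 (r = 0.89, permutation p = 0.00093, adjusted 0.014), TIMP2 with TIMP3 (r = 0.87, permutation p = 0.00051, adjusted 0.014), MMP2 with TIMP3 (r = 0.83, permutation p = 0.00322, adjusted 0.0322) and FBLN1 with TIMP3 (r = 0.79, permutation p = 0.00613, adjusted 0.0406). In LV it was DCN with MMP2 (r = 0.79, permutation p = 0.00676, adjusted 0.0406). Many other probes followed a member as closely: of all tested probes, 95.1% to 96.4% correlated less with DCN or MMP2 in LV than these did with each other. In septum the shares were 99.6% to 99.8% for BGN with FBLN1, 98.7% to 99.9% for TIMP2 with TIMP3, 96.3% to 97% for MMP2 with TIMP3 and 94.5% to 97.8% for FBLN1 with TIMP3. The rank correlations of these 5, in that order, were 0.73, 0.88, 0.76, 0.78 and 0.84, and TIMP2 with TIMP3 in septum was the pair that also passed by rank (permutation p = 0.00165, adjusted 0.0495). Without the 2 lambs farthest from the median of the first gene, r was 0.79, 0.74, 0.60, 0.70 and 0.83, and 0 of 30 pairs passed. For MMP2 with TIMP3 the permutation p was 0.116 without them. With the treatment mean subtracted r was 0.85, 0.86, 0.86, 0.74 and 0.79, and TIMP2 with TIMP3 passed (permutation adjusted p = 0.0354). Within the slide of 6 arrays all 15 pairs were positive in both regions (r 0.48 to 0.91 in LV and 0.46 to 0.99 in septum). TIMP2 with TIMP3 had r = 0.34 in LV, and the difference from septum was not tested. After normexp background correction that pair fell to r = 0.15 in septum, MMP2 with TIMP3 to 0.33 and FBLN1 with TIMP3 to 0.29, and none of these passed. BGN with FBLN1 in septum (0.84) and DCN with MMP2 in LV (0.71) still passed. DCN took negative r with BGN, FBLN1, MMP2 and TIMP2 in septum.

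**Figure D5:**
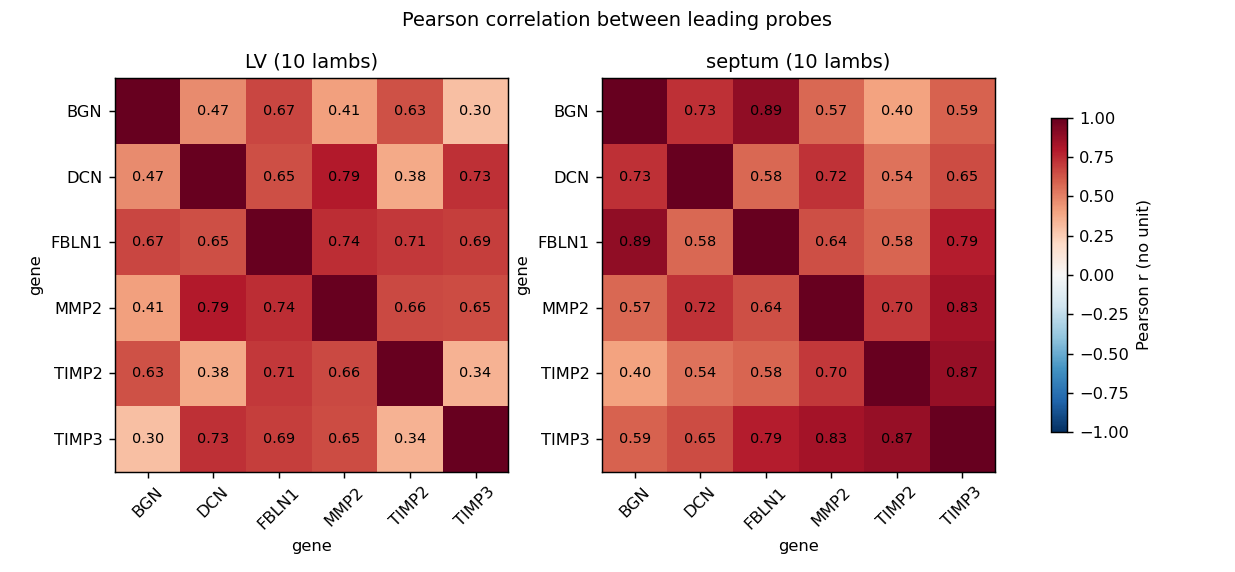
Pearson correlation between the leading probes of the 6 genes across 10 lambs, in LV and in septum, on a colour scale from -1 to 1. All values off the diagonal are positive, from 0.30 (BGN with TIMP3 in LV) to 0.89 (BGN with FBLN1 in septum).

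Of 495 named genes outside the set, the ones most like each member, by the lower of the r in 10 LV and 10 septum arrays, are given as a description. Nearest to BGN were OXT, oxytocin (0.88), INHBA, the activin A subunit (0.80), and IGF1, insulin-like growth factor 1 (0.79). Nearest to DCN were LPL, lipoprotein lipase (0.91), COL6A1, a chain of collagen VI (0.83), and ATF6, a transcription factor of the unfolded protein response (0.81). For FBLN1 they were PTGS1, cyclooxygenase 1 (0.84), VIM, the intermediate filament vimentin (0.83), and IGFBP5, an IGF-binding protein (0.82). For MMP2 they were RPS6, a ribosomal protein (0.88), TCP1, a chaperonin subunit (0.88), and POMC, the corticotropin precursor (0.87). For TIMP3 they were FGF10, a fibroblast growth factor (0.85), and PTGS1 (0.82). The TIMP2 probe had EEF1D, an elongation factor subunit (0.78), and IGF2, insulin-like growth factor 2 (0.77).

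The rest of the matrix was measured in part. For the lists that follow, 48.2% of all probes tested had a positive cortisol difference in LV (median -0.01) and 54.1% in septum (median 0.03). Of 29 genes for collagen chains and their processing 9 were tested, and 9 of 9 had positive cortisol differences in LV (median 0.44) and in septum (median 0.45), with 0 passing. COL1A1, a chain of fibrillar collagen I, was at 0.88 ± 0.45 in LV and 0.92 ± 0.44 in septum, COL6A1 at 0.75 ± 0.43 in LV and COL12A1, a fibril-associated collagen, at 0.97 ± 0.48 in septum. Between regions, COL4A1, a basement membrane collagen chain, was lower in septum without a block (-1.04 ± 0.23, limma adjusted p = 0.0473), a call that was lost with slide as a fixed block and within slide 2, where 0 probes passed. Of 46 matrix protease and inhibitor genes outside the set, 6 of 8 tested were positive in LV (median 0.10) and 5 of 9 in septum (median 0.05), and 0 passed. The septum count and median were near those of all probes. TIMP1, a soluble inhibitor of metalloproteinases, was at 0.80 ± 0.49 and 0.64 ± 0.36. SERPINF1, an anti-angiogenic serpin, was at 0.55 ± 0.32 in LV and 0.05 ± 0.52 in septum. FURIN, a proprotein convertase, was at 0.18 ± 0.37 in LV and 0.52 ± 0.26 in septum. Of 21 genes of the TGF-beta family and matrix receptors, 9 of 13 tested were positive in LV and 10 of 13 in septum, with 0 passing. SMAD2, a signal transducer, was at 0.46 ± 0.21 and 0.52 ± 0.26. The receptor TGFBR1 was at 0.56 ± 0.40 in LV and 0.40 ± 0.33 in septum. The co-receptor TGFBR3 was at -0.07 ± 0.22 in LV and 0.35 ± 0.19 in septum. Only LTBP4, a latent TGF-beta binding protein, was tested among 41 matrix glycoproteins (-0.0022 ± 0.20 and -0.08 ± 0.21), and none of 31 other proteoglycan genes.

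Of 4 fibroblast markers 4 had positive cortisol differences in both regions, with medians of 0.50 in LV and 0.60 in septum, and 0 passed. Over all probes 48.2% were positive in LV and 54.1% in septum. The fibroblast markers ranged in LV from 0.06 ± 0.56 for COL3A1 to 0.88 ± 0.45 for COL1A1. The direction was not particular to them: cardiomyocyte markers were positive in 3 of 4 in LV (median 0.23) and 4 of 4 in septum (median 0.34). Endothelial markers were positive in 2 of 6 and 4 of 6, and neutrophil markers in 0 of 2 in both regions. The summed linear level of COL1A1, COL1A2, COL3A1 and VIM, the 4 of 12 fibroblast markers that could be named, was 60.5 to 98.5 times the array's 75th percentile in LV control and 52.1 to 179 in LV cortisol, and 60.5 to 86.6 and 48.7 to 182 in septum. Most of this sum was VIM. The 9 collagen genes measured, COL1A1, COL1A2 and COL3A1 among them, summed to only 7.62 to 10.8 in LV control and 3.40 to 5.39 in septum control. The sum is therefore not a reading of the collagen markers. The 6 of 9 endothelial markers measured summed to 14.7 to 17.2 and 8.28 to 24.4 in LV, and 14.3 to 16.7 and 12.1 to 27.5 in septum. MYH7, the slow heart myosin and the 1 cardiomyocyte marker of 17 measured on every array, stood at 8.04 to 23.3 and 10.9 to 24.6 in LV. Of 3 skeletal muscle genes, only 1 was well above background on every array, and TNNC2, fast skeletal troponin C, differed by 2.12 ± 0.73 in LV and 1.91 ± 0.60 in septum (limma adjusted p 0.879 and 0.822). The part of these cell types in the differences of the 6 genes was not tested.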

How the data were processed

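The 20 one-colour arrays carried total RNA that, per the labels' protocols, was purified with Trizol and columns and labelled with Cy3 from 100 ng. The deposited processed signal is a background-subtracted spot intensity, not scaled between arrays, which the scanner software (Agilent Feature Extraction 10.1.1.1, per the file headers) wrote. The deposited value table holds log2 values, with limma named in the submitters' processing notes and its normalization not given in the sources used here. It was used as an alternative, and 0 of its columns belonged to other samples.

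Outlier spots were left out, spots of a probe averaged, and each array's 75th percentile subtracted on the log2 scale. Probes well above background on 5 of 10 arrays of a region, or 10 of 20, were tested in limma 3.58.1 (R 4.3.3), two-sided, with Benjamini-Hochberg adjustment over all probes at 0.05. Correlations used 100000 resamples, or every ordering for 6 arrays. The fit was tested on simulated data. Blocks for lamb, number and slide, single slides, other scalings, filters and left-out lambs were alternatives. The limma p-values set each difference against the spread between these samples. Without the lamb block the region fits took the 20 arrays as independent. Members, lists and rules were chosen with earlier results of these data known. Genes named were the members, the 2 genes of smallest p per list and region, and the 3 nearest per member (some are not reported here), with COL4A1 and TNNC2 chosen after their values were seen. Control and cortisol arrays of 1 number were not taken as paired. Their r was 0.07 to 0.29 in LV and 0.06 to 0.27 in septum, and above 0.1 in 4 of 5 pairs in LV and 3 of 5 in septum. It was highest for the own number in 3 of 5 pairs in each region. A weak pairing therefore remains possible, and number was also run as a block.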

Additional observations from a re-analysis of the deposited data

Results flagged for a closer look

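In 2 of 40 groups of 5 arrays (10 probes in 4 groups), 1 array stood apart from the other 4 by more than Dixon's 95% value of 0.71, and chance flags about 1 in 20. MMP2 probe 2 stood at -0.89 in septum control 3, with the other septum control arrays at -1.29 to -1.27. MMP2 probe 3 stood at -2.03 in LV control 1, with the others at -3.52 to -3.40.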

How the results depend on the processing

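In LV, in septum and for the difference between them, 0 probes passed for cortisol in each of 25, 25 and 21 alternatives, with 222 to 1122, 7 to 1793 and 0 to 488 at an unadjusted p under 0.05. Averaged per lamb, 4 probes passed with slide as a random block. With the replicate number of control and cortisol arrays as a block, no call of a member changed (BGN adjusted p 0.741 in LV and 0.67 in septum, limma). The positive cortisol difference turned negative within slide 2 for DCN (-0.14 in LV and -0.15 in septum), FBLN1 (-0.13 and -0.15), MMP2 (-0.69 and -0.43), TIMP2 (-0.69 and -0.67) and TIMP3 (-0.60 and -0.83). That of MMP2 also turned by probe 2 (-0.089 and -0.18), with brightness as a covariate in septum (-0.18, chosen after the data were seen) and with lambs left out (-0.0018 to 0.36 in LV and -0.059 to 0.20 in septum, lowest without cortisol 3). The cause was not tested.

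Between regions, 53 probes passed in the mean of both treatments, but 1 with normexp, 115 without a filter, 0 with slide as a fixed block, 2 with it as a random block, 0 within slide 2, 1773 with the replicate block (lamb), and 2 to 318 with a lamb left out (2 without control 2, 318 without cortisol 5). In control lambs 4 passed, but 1 each with quantile scaling, a percentile over detected probes or no filter, 0 with normexp, slide as a fixed or random block or within slide 2, 788 with the lamb block, and 0 to 44 with a lamb left out (0 without any 1 control lamb or cortisol 3, 44 without cortisol 5). In cortisol lambs 0 passed (388 at an unadjusted p under 0.05, limma), but 2 each with quantile scaling or the detected percentile, 1 each with a stricter filter or a mean-variance trend, 118 with the lamb block, and 0 to 8 with a lamb left out (8 without cortisol 5). The lamb block took TIMP3 past the threshold (adjusted p = 0.00993, and 0.0257 in control lambs, limma). Signs turned for BGN with normexp (0.015) and with lambs left out (-0.13 to 0.047), MMP2 within slide 2 (0.020), and TIMP2 with slide as a fixed block (0.070) and within slide 2 (0.20).

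Of 30 member pairs 5 passed, but 1 by rank, 1 with treatment means subtracted, 0 without the 2 farthest lambs, 0 within the slide of 6 arrays, 3 with quantile scaling and 16 with normexp, and 9 of 15 in the mean of both regions. The pairs passing with normexp were not all positive, with DCN and FBLN1 at r = -0.72 and DCN and TIMP2 at r = -0.76 in septum. They also left out TIMP3 with TIMP2, MMP2 and FBLN1 in septum, which had passed before. The deposited log2 table was not run for BGN, FBLN1, MMP2 and TIMP2 in septum. The number of arrays limits the precision.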
